A study of Mus musculus with 73 samples.

Results

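Loss of a repressive DNA mark and loss of a repressive histone mark were set side by side in the epiblast, the embryonic tissue that will form the body. The knockouts were loss of the DNA methyltransferase Dnmt1 and joint loss of the histone methyltransferases G9a and Glp. The comparison used 9 of the 73 samples of the series, namely 3 Dnmt1 libraries and 6 G9a-Glp libraries, chosen by their labels, and 7 wild-type libraries served only as a reference level. Each library came from the epiblast of 1 mouse embryo at embryonic day 6.5. All 16 embryos had a BDF1 mother and a CAST father and were made by sperm injection into the oocyte. BDF1 mice are hybrids of common laboratory strains, whereas CAST mice descend from wild animals, so reads over sequence differences between them can be assigned to the mother or the father. The Dnmt1 embryos carried guides and Cas9 against Dnmt1, and the G9a-Glp embryos carried them against Ehmt2, which encodes G9a, and Ehmt1, which encodes Glp. The wild-type embryos carried the same cross with no targeted gene. A further 4 wild-type epiblast libraries had a CAST mother and a BDF1 father, came from natural mating, and were read only to choose imprinted genes and for Cdh15 and Pdrg1. Guides and Cas9 mRNA were injected into zygotes, so each embryo was edited separately, the alleles may differ between embryos and between cells, and no line was bred. The Dnmt1 embryos were 1 male and 2 females, and the G9a-Glp embryos were 3 males and 3 females.

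Dnmt1 copies DNA methylation onto the new strand after each replication, and it keeps the methylation that marks 1 parental copy at imprinting control regions. G9a and Glp act as a pair and place mono- and dimethylation on lysine 9 of histone H3, a mark of silent chromatin. An imprinted gene is transcribed from the copy of 1 parent and is silent on the other. Promoters of many germline genes are methylated and silent in the epiblast.

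Libraries held 1141414 to 2132807 reads over strain differences in Dnmt1, 1637260 to 2860524 in G9a-Glp and 1311863 to 3028267 in wild type. Levels below are these counts scaled to the library total (CPM), and levels of different genes cannot be set against each other because gene length and the number of strain differences are not corrected. Embryos were single animals, and no label gave a batch. Wild-type embryo 8 stood apart, with 20567 genes holding reads against 14235 to 15118 in the other 6. Epiblast marker genes summed to 6217 to 7575 CPM in Dnmt1, 5229 to 8070 CPM in G9a-Glp and 4319 to 6543 CPM in wild type. Of that list Pou5f1, a pluripotency factor, had 2.63 to 22.1 CPM in Dnmt1, 3.76 to 10.8 CPM in G9a-Glp and at most 1.61 CPM in wild type. The 10 visceral endoderm markers summed to 35.9 to 199 CPM in Dnmt1, 9.78 to 311 CPM in G9a-Glp and 5.03 to 490 CPM in wild type, and their part in any result was not tested.

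The targeted genes were read first. Dnmt1 stood at 7.97, 11.4 and 4.70 CPM in Dnmt1 embryos 1, 2 and 3 and at 38.4 to 71.4 CPM (median 53.9) in the G9a-Glp embryos. Wild-type values were 21.9 to 40.4 CPM. The groups did not overlap, and the difference on the log2 scale was -2.88 ± 0.30 (SE, adjusted p = 0.000111, edgeR quasi-likelihood test). Ehmt1 was 4.14, 29.3, 6.93, 18.96, 17.1 and 50.5 CPM in G9a-Glp embryos 1, 2, 3, 4, 5 and 7, and 54.9, 36.8 and 54.3 CPM in the Dnmt1 embryos (adjusted p = 0.213). Wild-type Ehmt1 was 14.5 to 39.8 CPM, so G9a-Glp embryos 1 and 3 lay below that range, embryos 2, 4 and 5 inside it and embryo 7 above it. Ehmt2 was 14.1, 9.64 and 18.1 CPM in Dnmt1 against 1.13 to 5.50 CPM in G9a-Glp, a log2 difference of 2.17 ± 0.44 (SE, adjusted p = 0.0137). The wild type had 0.396 to 6.27 CPM of Ehmt2, so Ehmt2 in the libraries labelled G9a-Glp was not below wild type. That call was lost without Dnmt1 embryo 1. Edited alleles can still be transcribed, so these levels do not measure the proteins. In tissue libraries such as these, fewer cells that express a gene and less RNA per cell cannot be told apart.

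The first question was whether loss of either mark went with reads from the silent parental copy of imprinted genes. In the 11 imprinted genes that passed the test, both parental copies were read in the Dnmt1 epiblast, with maternal shares of 30.5 to 72.4%. In the G9a-Glp epiblast the parent that was active in wild type gave most reads of these genes. Of 85 listed imprinted genes, 79 were in the table, 32 had enough reads to be tested for a difference in the split between alleles, and 11 passed. Across all 7228 autosomal genes tested, 13 passed (0.180%), 9 with more maternal reads in Dnmt1 (0.125%) and 4 with fewer (0.0553%). All 11 imprinted genes were closer to an equal split in Dnmt1, and their 3 Dnmt1 values did not overlap the 6 G9a-Glp values. No overlap held for 283 of the 7228 genes, called or not (3.92%), over libraries with at least 10 reads. The 11 were picked by the test on these same shares, which were far from equal in G9a-Glp, so neither statement adds support. The median share of reads from the normally silent copy, taken over listed genes imprinted in wild type with at least 20 reads, was 42.1, 44.5 and 45.3% in the Dnmt1 embryos. It was 4.76, 3.10, 1.55, 2.90, 2.25 and 1.33% in G9a-Glp embryos 1, 2, 3, 4, 5 and 7. The wild type ranged from 0.480 to 4.44%. Its highest value was that of embryo 8, which stood apart in genes read, and the others had at most 1.40%. G9a-Glp embryos 1 to 5 lay above those others, and embryo 7 lay among them. However, the genes were chosen because the wild-type libraries showed them imprinted, and 15 to 20 genes entered in each library. A small distance between G9a-Glp and wild type can therefore not be read from these shares. The means were 44.0 ± 1.68% (SD, n = 3), 2.65 ± 1.25% (SD, n = 6) and 1.44 ± 1.37% (SD, n = 7), and every Dnmt1 embryo lay far above every other.

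**Figure D1:**
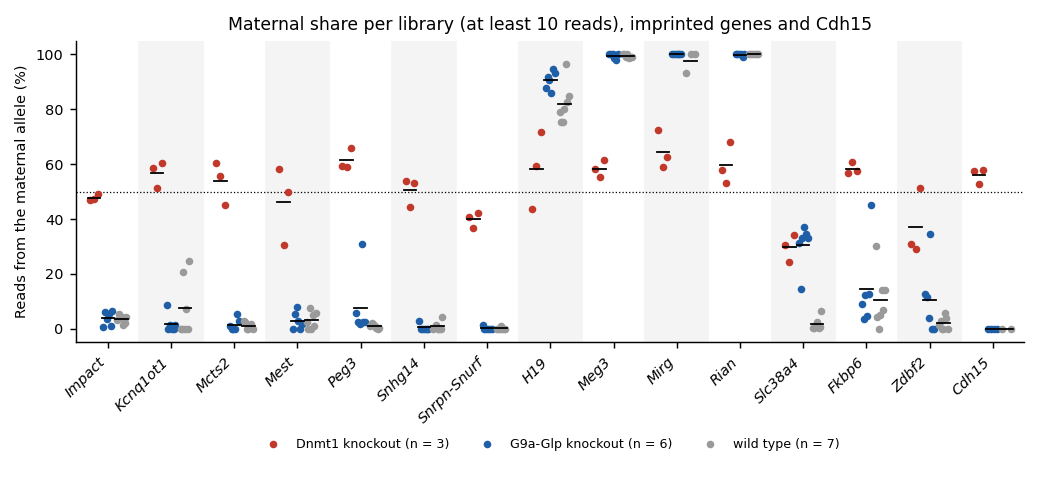
Percentage of reads from the maternal allele (vertical axis) for imprinted genes and Cdh15, 1 point per library with at least 10 reads, in Dnmt1 (red), G9a-Glp (blue) and wild-type (grey) epiblast. Black bars are group means and the dotted line marks an equal split. The first 11 genes passed the allelic test, and their Dnmt1 points sit between 30.5 and 72.4%.

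Paternally expressed genes made up 7 of the 11. Promoter sequence of 3 of them is shown because the marks under study act on such DNA: the 250 bases before the RefSeq start of Peg3 (chr7:6730420-6730669, minus strand), Mcts2 (chr2:152686898-152687147, plus strand) and Kcnq1ot1 (chr7:143296548-143296797, minus strand), all in build GRCm38.p6. Capitals mark CpG, the dinucleotide that Dnmt1 methylates, and the windows hold 8, 20 and 5 of them.
Peg3: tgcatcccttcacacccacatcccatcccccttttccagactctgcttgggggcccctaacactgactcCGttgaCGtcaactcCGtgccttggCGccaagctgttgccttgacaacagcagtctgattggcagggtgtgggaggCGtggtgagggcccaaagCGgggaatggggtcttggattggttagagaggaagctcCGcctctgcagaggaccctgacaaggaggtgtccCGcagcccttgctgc
Mcts2: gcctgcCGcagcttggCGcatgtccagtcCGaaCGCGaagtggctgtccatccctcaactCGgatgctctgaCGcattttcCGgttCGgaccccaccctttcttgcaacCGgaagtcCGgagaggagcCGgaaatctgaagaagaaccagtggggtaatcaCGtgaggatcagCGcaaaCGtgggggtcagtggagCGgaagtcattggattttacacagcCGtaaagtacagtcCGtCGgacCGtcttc
Kcnq1ot1: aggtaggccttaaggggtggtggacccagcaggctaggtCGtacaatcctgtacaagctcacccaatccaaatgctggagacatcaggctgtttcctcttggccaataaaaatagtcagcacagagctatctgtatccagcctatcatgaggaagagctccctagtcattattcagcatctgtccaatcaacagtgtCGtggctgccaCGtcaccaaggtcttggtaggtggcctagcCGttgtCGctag

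Snhg14, the noncoding host transcript of small nucleolar RNAs in the Prader-Willi region (chr7:59969577-59974431, mm10), was 53.9, 44.5 and 53.2% maternal in the Dnmt1 embryos. In G9a-Glp it was 2.74% in embryo 1 and 0% in the other 5, and the wild type had 0 to 4.44% (log2 change of the maternal to paternal ratio 7.61 ± 0.51 SE, adjusted p = 3.04e-05). Its neighbour Snrpn-Snurf, which encodes a spliceosomal protein, was 40.9, 36.6 and 42.1% maternal in Dnmt1 and 0 to 1.43% in G9a-Glp. With 292 to 1063 reads a library, Snrpn-Snurf gave the narrow limit of 0.282 to 0.604% maternal reads in the 5 G9a-Glp libraries listed at 0%. These limits are 3 reads of the total and cover counting error only.

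Kcnq1ot1, a noncoding RNA that silences neighbouring genes on its own chromosome (chr7:143213111-143296547), was 58.5, 51.3 and 60.6% maternal in Dnmt1. G9a-Glp embryo 1 had 8.70% and the other 5 had at most 1.33% (log2 ratio change 6.64 ± 0.49 SE, adjusted p = 4.4e-05). The wild type had 0 to 24.7%, with a median of 0% and the highest value in embryo 8. Mcts2, a retrogene of the H13 locus (chr2:152687148-152687946), was 60.5, 55.6 and 45.3% maternal in Dnmt1 and 0 to 5.56% in G9a-Glp. Impact, a regulator of the translation kinase Gcn2 (chr18:12962942-12992950), had the smallest spread of the 11 in Dnmt1, 46.8, 47.2 and 49.0%, against 0.699 to 6.41% in G9a-Glp and 1.52 to 5.46% in wild type. Mest, which encodes a hydrolase-fold protein, was 58.3, 30.5 and 50.0% maternal in Dnmt1 and at most 7.95% in G9a-Glp. Without Dnmt1 embryo 1 or embryo 3 its call was lost.

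Peg3, a zinc finger gene (chr7:6703892-6730441), was 59.5, 58.8 and 65.7% maternal in Dnmt1. The other G9a-Glp embryos had 1.80 to 5.69%, whereas embryo 4 had 31.0%, above the wild-type range of 0 to 2.26%. Its adjusted p was 0.0482, and the call was lost without any 1 of the Dnmt1 embryos or any 1 of the G9a-Glp embryos other than embryo 4.

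The 4 maternally expressed genes moved the other way in percent, toward equality. Meg3, Rian and Mirg are noncoding RNAs of the Dlk1-Dio3 domain on chromosome 12. Meg3 (chr12:109540996-109571729) was 58.1, 55.4 and 61.5% maternal in Dnmt1 and 98.0 to 100% in G9a-Glp, with a log2 ratio change of -6.90 ± 0.51 (SE, adjusted p = 4.4e-05). Rian was 57.7, 53.0 and 67.9% in Dnmt1 and 99.1% or 100% in G9a-Glp. Mirg rested on 13 to 33 reads a library in these groups, was 72.4, 58.8 and 62.5% maternal in Dnmt1 and 100% in all 6 G9a-Glp embryos, and its adjusted p of 0.0482 was lost when any 1 library other than G9a-Glp embryo 4 was left out. H19, the noncoding neighbour of Igf2 (chr7:142575530-142578146), had the smallest difference of the 11 in mean share: 43.5, 59.2 and 71.7% in Dnmt1, 86.0 to 94.5% in G9a-Glp and 75.5 to 96.6% in wild type (log2 ratio change -3.0 ± 0.38 SE, adjusted p = 0.00501).

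Of 20 listed genes that were imprinted in wild-type epiblast, 18 were tested, and the 7 without a call did not behave alike. Magel2, a ubiquitin ligase regulator of the Prader-Willi region, was 34.9, 20 and 57.9% maternal in Dnmt1 and 0% in all 6 G9a-Glp embryos, where the summed 189 reads allow up to 1.59% (adjusted p = 0.0915). Fkbp6 was 56.7, 60.7 and 57.4% maternal in Dnmt1 and 3.57 to 12.6% in 5 G9a-Glp embryos, but 45.0% in embryo 7 (adjusted p = 0.139). Zdbf2 was 30.8, 28.9 and 51.5% in Dnmt1 and 0 to 12.8% in 5 G9a-Glp embryos, with 34.5% in embryo 4 (adjusted p = 0.551). The separate G9a-Glp embryos that stood apart were thus embryo 4 for Peg3 and Zdbf2, and embryo 7 for Fkbp6. H13 and Phlda2, both maternally expressed, overlapped between the groups. Sgce, paternally expressed, had 25.7, 82.4 and 45.0% maternal reads in Dnmt1 and 0 to 18.2% in the 5 G9a-Glp embryos with enough reads (adjusted p = 0.377).

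Slc38a4 differed from the rest in that its maternal copy was read in both knockouts. It encodes an amino acid transporter and belongs to the noncanonical imprinted genes, whose maternal silence is known to start from a histone mark rather than from DNA methylation (chr15:96994823-97055956). Its maternal share was 30.6, 24.2 and 34.1% in Dnmt1 and 31.3, 14.6, 33.1, 37.2, 34.5 and 33.0% in G9a-Glp embryos 1, 2, 3, 4, 5 and 7. Wild-type shares were 0.274 to 6.33%. No knockout value reached down to the wild-type range, and the 2 knockouts overlapped. The log2 ratio change between them was -0.07 ± 0.35 (SE, adjusted p = 0.986), which does not show that they are equal. Each of these libraries held 179 to 710 reads of Slc38a4.

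Outside the lists, 2 genes passed the allelic test. Cdh15, which encodes a cell adhesion cadherin of muscle (chr8:122848374-122867397), was 57.5, 52.6 and 57.7% maternal in Dnmt1 and 0% in the 4 G9a-Glp and 2 wild-type libraries with at least 10 reads. The summed 85 G9a-Glp reads allow up to 3.53%. In the reciprocal cross 1 library had enough reads, and its maternal share was 7.14%. The Cdh15 call was lost without any 1 Dnmt1 embryo. Pdrg1, a gene of a chaperone-like complex, was 83.2, 87.5 and 86.1% maternal in Dnmt1 and 58.3 to 66.8% in G9a-Glp (log2 ratio change 1.79 ± 0.19 SE, adjusted p = 0.000794). The wild type had 65.9 to 75.4% in this cross and 15.1 to 26.8% maternal in the reciprocal one, so the BDF1 copy was the stronger in both.

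Reads of each copy were set side by side, with no test. For Kcnq1ot1 the silent copy had 49.1 ± 20.8 CPM in Dnmt1 (SD, n = 3) and 0.333 ± 0.387 CPM in G9a-Glp (SD, n = 6), while the active copy had 38.6 ± 18.3 and 31.8 ± 17.5 CPM. For Mcts2 the silent copy had 34.2 ± 7.78 CPM in Dnmt1 and 0.613 ± 0.960 CPM in G9a-Glp, with the active copy at 29.2 ± 5.26 and 31.9 ± 7.43 CPM. In these 2 genes the active copy overlapped between the knockouts and the silent copy did not. Snrpn-Snurf did not follow them: its silent copy had 128 ± 37.2 CPM in Dnmt1 and 0.878 ± 2.15 CPM in G9a-Glp, but its active copy had 191 ± 35.8 CPM in Dnmt1 and 344 ± 37.2 CPM in G9a-Glp. The total of Snrpn-Snurf was 303, 256 and 399 CPM in Dnmt1 against 292 to 382 CPM in G9a-Glp, and it did not pass the expression test (adjusted p = 0.641).

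The total level of imprinted genes was then compared. Across all 9935 autosomal genes tested, 322 passed (3.24%), with 132 higher in Dnmt1 (1.33%) and 190 higher in G9a-Glp (1.91%). Of 35 listed paternally expressed genes, 30 were in the table, 13 were tested, and 5 were higher in Dnmt1 and 0 higher in G9a-Glp, with a median log2 difference of 0.89 against 0.01 over all genes. Without Dnmt1 embryo 3, 10 of 16 tested were higher in Dnmt1, as were 452 of all 10485 genes tested in that setting. A gene with reads in the Dnmt1 libraries alone could enter the test, so these counts describe the list. Peg3 had 804, 917 and 262 CPM in Dnmt1 and 92.6 to 190 CPM in G9a-Glp, a log2 difference of 2.11 ± 0.30 (SE, adjusted p = 0.00145). Its silent copy alone gave 397 ± 197 CPM in Dnmt1. Impact had 147, 154 and 160 CPM in Dnmt1 and 45.7 to 71.6 CPM in G9a-Glp (log2 difference 1.28 ± 0.17 SE, adjusted p = 0.00094), but the wild-type total, at 121 to 156 CPM, resembled Dnmt1. The total of Snhg14 was placed likewise, at 78.3, 104 and 84.5 CPM in Dnmt1, 27.5 to 43.4 CPM in G9a-Glp and 34.3 to 100.1 CPM in wild type. In both genes the mean of the active copy alone was below wild type in both knockouts. For Impact this copy had 80.5 ± 1.95 CPM in Dnmt1, 58.6 ± 9.08 CPM in G9a-Glp and 133 ± 12.0 CPM in wild type (SD). For Snhg14 it had 44.5 ± 11.7, 37.8 ± 7.33 and 76.8 ± 23.3 CPM. Zdbf2, which had 42.7, 33.3 and 45.6 CPM in Dnmt1, 11.2 to 21.2 CPM in G9a-Glp and 19.7 to 44.2 CPM in wild type, and Fkbp6 were the other 2, and the Zdbf2 call was lost without Dnmt1 embryo 1, and also without G9a-Glp embryos 2 and 7 together. Every G9a-Glp value of Peg3, Impact, Snhg14 and Zdbf2 was below the wild-type median, which was 212 CPM for Peg3, 77.5 CPM for Snhg14 and 30.3 CPM for Zdbf2. Values of Fkbp6 are given with the germline genes.

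**Figure D2:**
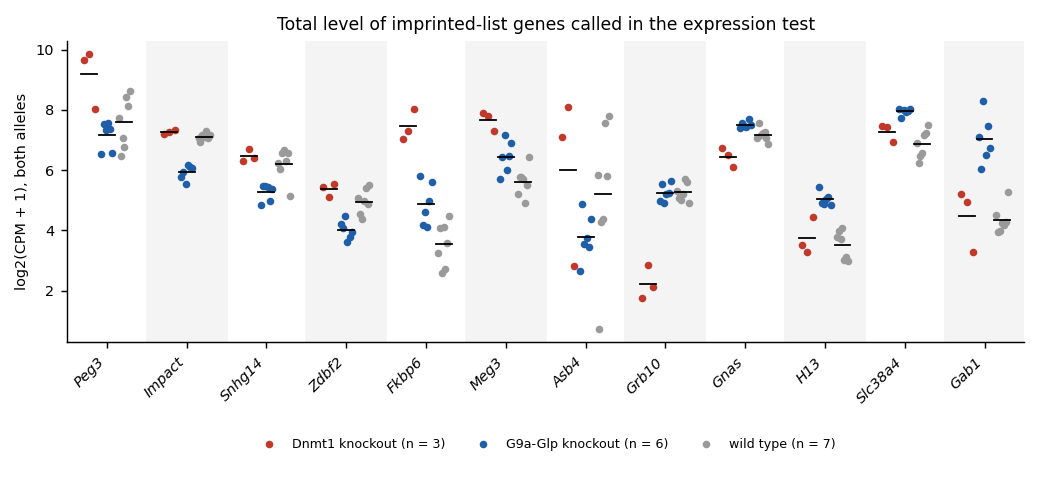
Total level of the imprinted-list genes that passed the expression test, as log2(CPM + 1) on the vertical axis, 1 point per library in Dnmt1 (red), G9a-Glp (blue) and wild-type (grey) epiblast, with bars at the mean of the log2 values. The first 7 genes were higher in Dnmt1 and the last 5 higher in G9a-Glp; Asb4 spread from 6.04 to 272 CPM within Dnmt1.

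Of the 44 maternally expressed genes listed, 43 were in the table and 28 were tested. Of these, 2 were higher in Dnmt1 (1.33% of all genes tested were) and 3 higher in G9a-Glp (1.91%). Meg3 rose to 236, 220 and 155 CPM in Dnmt1 against 51.2 to 143 CPM in G9a-Glp (log2 difference 1.11 ± 0.26 SE, adjusted p = 0.0308), and the call was lost without Dnmt1 embryo 1 or 2 or without G9a-Glp embryo 2, 4 or 5. Asb4, a ubiquitin ligase subunit, had 136, 272 and 6.04 CPM in the Dnmt1 embryos and 5.27 to 28.1 CPM in G9a-Glp (adjusted p = 0.0105), so embryo 3 fell among the G9a-Glp values, and the call was lost without Dnmt1 embryo 2. Grb10, an adaptor that restrains insulin receptor signalling (chr11:11930499-12037422), had the largest fall of these 3: 2.34, 6.13 and 3.35 CPM in Dnmt1 against 29.4 to 49.2 CPM in G9a-Glp and 29.0 to 51.0 CPM in wild type. The log2 difference was -3.39 ± 0.35 (SE, adjusted p = 9.76e-05), and a second annotated transcript overlaps Grb10 and may share its reads. Too few Grb10 reads were left in Dnmt1 to test the split. Gnas, a G protein subunit gene, had 106, 89.4 and 67.8 CPM in Dnmt1 and 167 to 208 CPM in G9a-Glp (log2 difference -1.11 ± 0.17 SE, adjusted p = 0.00222), and Nespas overlaps it. H13, which encodes signal peptide peptidase, was 10.3, 8.76 and 20.8 CPM in Dnmt1 and 27.4 to 42.1 CPM in G9a-Glp. The wild type of H13 lay at 6.86 to 15.7 CPM, nearer to Dnmt1, and the H13 call was lost without Dnmt1 embryo 1 or 2 or G9a-Glp embryo 1, 4, 5 or 7.

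Of the 6 noncanonical imprinted genes, 5 were tested and 2 were higher in G9a-Glp (1.91% of all genes tested were). Gab1, a signalling adaptor, had 36.1, 29.8 and 8.72 CPM in Dnmt1 and 65.4 to 316 CPM in G9a-Glp (log2 difference -2.63 ± 0.51 SE, adjusted p = 0.0108). The wild type had 14.5 to 37.4 CPM, so every G9a-Glp embryo was above it. Slc38a4 had 175, 173 and 120.1 CPM in Dnmt1 and 210 to 263 CPM in G9a-Glp (log2 difference -0.72 ± 0.17 SE, adjusted p = 0.0336), a call that was lost without Dnmt1 embryo 1 or 2 or G9a-Glp embryo 1, 4, 5 or 7.

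**Figure D3:**
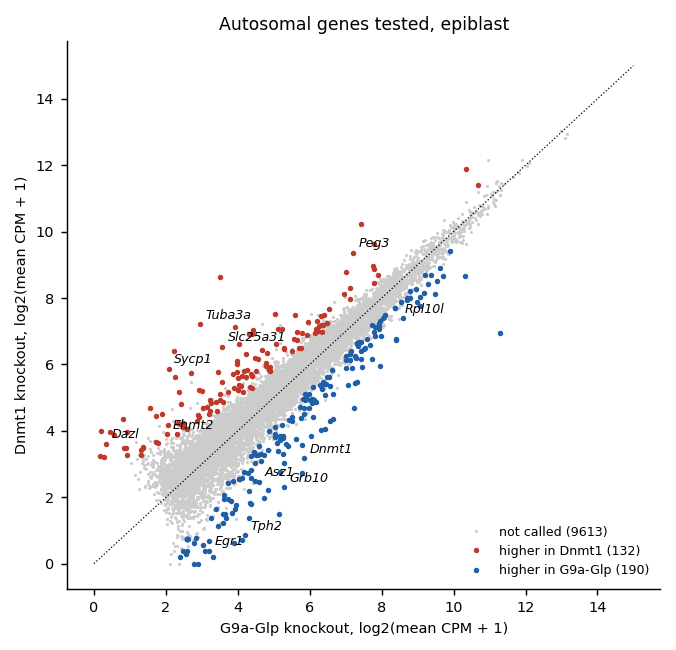
Mean level of the 9935 autosomal genes tested, as log2(mean CPM + 1) in G9a-Glp (horizontal axis) and Dnmt1 (vertical axis) epiblast, 1 point per gene, with the dotted line at equality. The 132 genes called higher in Dnmt1 are red and the 190 called higher in G9a-Glp are blue.

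Germline and meiosis genes divided between the knockouts. Of 63 listed, 60 were in the table and 30 were tested, and 9 of these were higher in Dnmt1 (1.33% of all genes tested were) and 2 higher in G9a-Glp (1.91%). Here too a gene could enter the test through reads in 1 knockout alone, so these counts only describe the list. Without G9a-Glp embryos 2 and 7, which had the highest Ehmt1 of the 6, the counts were 9 and 2, with Rpl10l called in place of Nlrp4c. Summed over the 60 genes, the list gave 1553, 1386 and 1553 CPM in Dnmt1, 846 to 1446 CPM in G9a-Glp and 437 to 659 CPM in wild type. The knockouts overlapped in this sum, and every embryo of both lay above the wild type. Without Rpl10l and Cyct, a choice made after seeing the data, the other 58 genes gave 1213, 1093 and 1386 CPM in Dnmt1, 536 to 751 CPM in G9a-Glp and 434 to 640 CPM in wild type. The 3 Dnmt1 embryos then lay above every other library, and 5 of the 6 G9a-Glp embryos lay inside the wild-type range. Rpl10l and Cyct had the highest mean G9a-Glp levels of the list, so this outcome follows from the choice. Cyct had 33.5 to 243 CPM in G9a-Glp, 14.1 to 165 CPM in Dnmt1 and 0.843 to 45.2 CPM in wild type. Sohlh2, Sycp2 and Ddx4 stayed in the sum and were above every wild-type value in both knockouts, whereas Sycp3 and Syce2 had lower means there.

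The 250 bases before the RefSeq start are shown for the 4 listed genes with the largest difference, Dazl (chr17:50293621-50293870, minus strand), Tuba3a (chr6:125286082-125286331, minus strand), Sycp1 (chr3:102936101-102936350, minus strand) and Hormad1 (chr3:95559427-95559676, plus strand). Asz1 (chr6:18109062-18109311, minus strand), picked after its values were seen, stands for the opposite direction. The build is GRCm38.p6, capitals mark CpG, and the windows hold 20, 8, 17, 19 and 15 of them.
Dazl: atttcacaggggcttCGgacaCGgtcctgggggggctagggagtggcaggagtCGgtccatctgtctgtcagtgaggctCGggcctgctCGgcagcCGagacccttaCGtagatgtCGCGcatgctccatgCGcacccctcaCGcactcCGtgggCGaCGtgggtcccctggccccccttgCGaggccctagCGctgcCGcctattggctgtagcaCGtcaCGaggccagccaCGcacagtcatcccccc
Tuba3a: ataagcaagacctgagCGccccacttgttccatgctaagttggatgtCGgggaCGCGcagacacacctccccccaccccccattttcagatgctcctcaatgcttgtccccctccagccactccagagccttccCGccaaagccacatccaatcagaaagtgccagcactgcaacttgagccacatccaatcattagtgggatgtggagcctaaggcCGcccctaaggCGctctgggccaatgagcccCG
Sycp1: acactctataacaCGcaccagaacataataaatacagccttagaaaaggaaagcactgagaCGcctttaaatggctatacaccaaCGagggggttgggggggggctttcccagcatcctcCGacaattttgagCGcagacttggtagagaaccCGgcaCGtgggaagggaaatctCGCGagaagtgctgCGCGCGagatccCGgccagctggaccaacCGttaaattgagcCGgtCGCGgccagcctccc
Hormad1: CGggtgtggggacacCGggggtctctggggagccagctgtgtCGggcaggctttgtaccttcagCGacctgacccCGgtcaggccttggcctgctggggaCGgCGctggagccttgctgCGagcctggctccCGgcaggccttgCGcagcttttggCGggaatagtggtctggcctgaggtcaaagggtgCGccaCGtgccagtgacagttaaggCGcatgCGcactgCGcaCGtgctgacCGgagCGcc
Asz1: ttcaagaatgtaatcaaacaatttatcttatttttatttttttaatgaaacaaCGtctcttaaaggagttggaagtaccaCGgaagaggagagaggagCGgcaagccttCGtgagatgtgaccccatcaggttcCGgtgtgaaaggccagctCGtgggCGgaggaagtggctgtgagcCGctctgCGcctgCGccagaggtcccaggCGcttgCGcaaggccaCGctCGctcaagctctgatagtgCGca

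Dazl, an RNA-binding protein that germ cells need, had 14.1, 7.01 and 12.7 CPM in the Dnmt1 embryos, 0.376 and 1.22 CPM in G9a-Glp embryos 1 and 3, and no reads in the other 4. The log2 difference was 5.04 ± 0.75 (SE, adjusted p = 0.00163) and rested on 57 reads against 4. Tuba3a, a tubulin of the testis, had 160, 99.9 and 180 CPM in Dnmt1 and 2.32 to 17.7 CPM in G9a-Glp (log2 difference 4.46 ± 0.39 SE, adjusted p = 2.31e-05). The wild type had at most 6.06 CPM, inside the G9a-Glp range or below it. Reads of Tuba3a may be shared with its near copy Tuba3b, which had 39.4, 33.3 and 58.4 CPM in Dnmt1 and 0 to 19.9 CPM in G9a-Glp (adjusted p = 0.0596). Sycp1, the filament protein that joins paired chromosomes in meiosis, had 81.1, 56.9 and 34.9 CPM in Dnmt1 and 1.75 to 5.64 CPM in G9a-Glp (log2 difference 4.04 ± 0.36 SE, adjusted p = 2.31e-05). Hormad1, a protein of the meiotic chromosome axis, had a narrow spread, 15.9, 14.9 and 13.4 CPM in Dnmt1 against 0.428 to 1.63 CPM in G9a-Glp.

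The other 5 were Tex15, Slc25a31, Fkbp6, Tex19.1 and Dmc1. Tex15, which acts in silencing of transposons in male germ cells, had 43.6, 42.1 and 59.7 CPM in Dnmt1, 13.2 CPM in G9a-Glp embryo 1 and 0.408 to 5.03 CPM in the other 5. Slc25a31, the ADP/ATP carrier of sperm, had 82.1, 86.7 and 106 CPM in Dnmt1 and 4.89 to 18.3 CPM in G9a-Glp (log2 difference 3.05 ± 0.31 SE, adjusted p = 9.76e-05). Fkbp6, a cochaperone of meiosis that is also on the imprinted list, had 129, 156 and 262 CPM against 16.3 to 55.3 CPM. Tex19.1 had 44.1, 40.3 and 75.2 CPM against 4.28 to 13.6 CPM. Dmc1, the recombinase of meiosis, had 33.3, 26.3 and 46.3 CPM against 7.75 to 17.1 CPM, and its wild type of 15.2 to 26.4 CPM overlapped both knockouts.

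In the opposite direction, Asz1, a component of the piRNA pathway, had 5.63, 2.63 and 5.37 CPM in Dnmt1 and 17.1 to 28.2 CPM in G9a-Glp (log2 difference -2.35 ± 0.34 SE, adjusted p = 0.00155). The wild type had at most 1.09 CPM, below every knockout embryo. Nlrp4c, an oocyte gene of the NLR family, had 19.22, 1.75 and 7.38 CPM in Dnmt1 and 22.4 to 45.3 CPM in G9a-Glp (log2 difference -1.78 ± 0.44 SE, adjusted p = 0.0415). The Nlrp4c call was lost without Dnmt1 embryo 2 or any 1 G9a-Glp embryo other than embryo 3, although Rpl10l was called without embryo 2. Rpl10l, a ribosomal protein retrogene of the testis, was high in both: 175, 170 and 152 CPM in Dnmt1 and 199 to 661 CPM in G9a-Glp, where the wild type had 1.45 to 19.5 CPM. Its groups did not overlap, but it missed the threshold (log2 difference -1.18 ± 0.34 SE, adjusted p = 0.0767). Syce2, a central element of the synaptonemal complex, was present in every group, at 158 to 189 CPM in Dnmt1, 91.1 to 139 CPM in G9a-Glp and 175 to 292 CPM in wild type (adjusted p = 0.174).

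**Figure D4:**
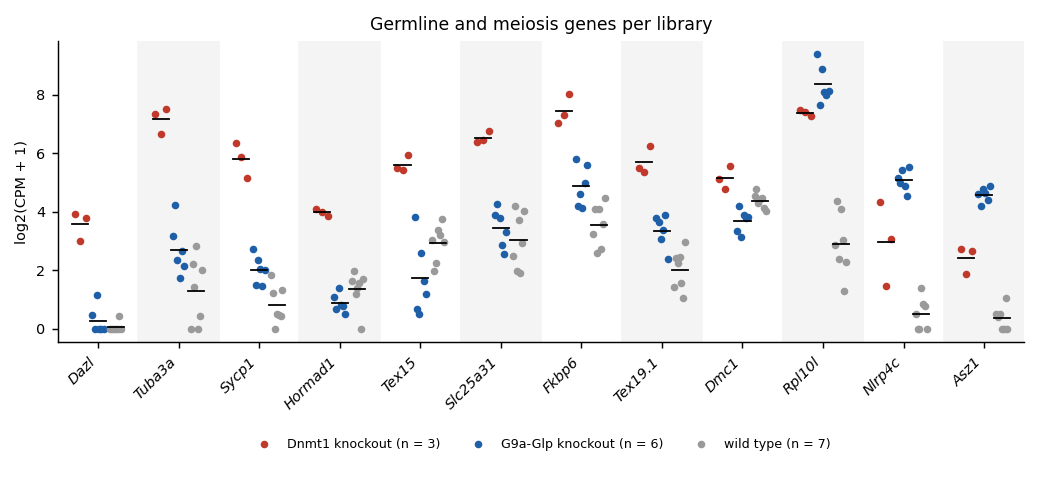
Level of the 11 germline and meiosis genes that passed the expression test and of Rpl10l, as log2(CPM + 1), 1 point per library in Dnmt1 (red), G9a-Glp (blue) and wild-type (grey) epiblast, with bars at the mean of the log2 values. The 9 genes on the left were higher in Dnmt1; Rpl10l, Nlrp4c and Asz1 on the right had higher values in G9a-Glp.

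Promoters of the called genes were described with RefSeq windows of 250 bases before to 50 after each start. A gene with several starts was given the mean CpG number of its windows. It was counted as holding a motif if any of its windows did. The window was found for 7483 of the 9935 genes tested, with a median of 21.0 CpG. The 93 matched genes of the 132 higher in Dnmt1 had a median of 19, and the 144 matched of the 190 higher in G9a-Glp had 14.0. The interquartile ranges were 14.0 to 28, 7.5 to 25.0 and 6.0 to 21.0, and they overlapped widely. Among 8 matched germline genes higher in Dnmt1 the median was 21.5. Of these 8, 50.0% held the E-box CACGTG and 75.0% held GCGGGA, a motif of E2F factors, on either strand. Among all tested genes with a window, 11.9% held the first and 40.5% the second. The shares were 15.1% and 35.5% of matched genes higher in Dnmt1, and 8.33% and 29.2% of those higher in G9a-Glp. Among all 32851 windows, counted singly and not by gene, 7.15% and 20% did, so these shares are in another unit. TGCCGC, the motif of the imprint-protecting factor ZFP57, was in 25.0% of the 8, 22.5% of tested genes and 11.6% of all windows counted singly. The 3 motifs cannot occupy the same 6 bases, though neighbouring matches can overlap at their ends.

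Beyond these lists, the genes with the largest differences and no overlap between groups were named in each direction. Without overlap stood 942 of the 9935 genes (9.48%), 115 of the 132 called higher in Dnmt1 and 174 of the 190 called higher in G9a-Glp. Pla2g1b, a secreted phospholipase A2 (chr5:115466241-115474717), led the first by reads, with 376, 262 and 543 CPM in Dnmt1, 4.89 to 20.7 CPM in G9a-Glp and 65.7 to 170 CPM in wild type. The log2 difference was 5.17 ± 0.35 (SE, adjusted p = 2.08e-06), and the 2 knockouts lay on opposite sides of wild type. Bglap3, of the osteocalcin family, had 20.6, 18.4 and 34.9 CPM in Dnmt1 and 0.408 to 3.87 CPM in G9a-Glp. Tas1r1, a taste receptor subunit, had 19.22, 11.4 and 10.1 CPM against at most 1.94 CPM. Tspan10, a tetraspanin, and Cyp4a12b, a cytochrome P450, had 2 reads each over all G9a-Glp libraries. The pooled ratio of Tspan10 was 104, with a 95% exact interval of 27.6 to 874 that covers counting error only. Both genes could enter the test through Dnmt1 reads alone, and they were named for the size of the difference. The ratio and interval therefore only describe a gene picked on these same reads. The pseudogene Sycp1-ps1 was called too (43 reads against 3), but it shares sequence with Sycp1 and is uncertain.

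The genes named in the opposite direction had few reads in Dnmt1. Mroh2b, a HEAT-repeat gene (chr15:4898649-4962203), had 1.41, 2.63 and 1.34 CPM in Dnmt1, 24.4 to 54.6 CPM in G9a-Glp and at most 2.37 CPM in wild type (log2 difference -4.38 ± 0.45 SE, adjusted p = 9.76e-05). Tph2, the tryptophan hydroxylase of serotonin neurons, had 0, 1.75 and 0.671 CPM in Dnmt1 and 9.41 to 26.9 CPM in G9a-Glp. Its pooled ratio was 28.5 (95% exact interval 9.65 to 139). Genes in this direction could likewise enter the test through G9a-Glp reads alone, and were named for the size of the difference. This ratio and its interval therefore only describe a gene so picked. Serpinf1, a secreted serpin, had 0.938, 1.75 and 2.01 CPM in Dnmt1 and 6.12 to 31.2 CPM in G9a-Glp (log2 difference -3.65 ± 0.59 SE, adjusted p = 0.00263). Aim2, a sensor of DNA in the cytosol, Mapk10, the neuronal kinase JNK3, Myh11, a smooth muscle myosin, and the phosphatase Ptpn20 had 1 read each in Dnmt1 and 62 to 75 reads in G9a-Glp. Egr1, an immediate early transcription factor, and Ptprtos, a transcript that overlaps Ptprt, had 2 reads each against 120 and 113, and Efcab12 had 3 against 112. Calls of Ehmt2, Sycp1-ps1, Aim2, Mapk10, Egr1, Myh11, Ptpn20 and Efcab12 were lost without Dnmt1 embryo 1, and those of Mapk10, Egr1, Myh11, Ptprtos, Ptpn20 and Efcab12 without Dnmt1 embryo 2. Leaving out 1 G9a-Glp embryo ended the call of Aim2 (embryo 7), Mapk10 (embryo 2, 5 or 7), Myh11 (embryo 2 or 4) and Efcab12 (embryo 1, 2, 5 or 7). Myh11 was also lost without Dnmt1 embryo 3. Aim2 overlaps Cadm3 and may share its reads.

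Where the wild type stood was counted for the called genes as a reference, with no test. For the 132 genes higher in Dnmt1, the wild-type median lay below both knockout means in 50, between them in 71 and above both in 11, and Dnmt1 was the knockout farther from wild type in 88. For the 190 genes higher in G9a-Glp the counts were 95, 75 and 20, and Dnmt1 was the farther in 46. All these genes were selected by the difference between the knockouts, which in part fixes the farther one. No share over all tested genes is set beside the counts, so they only describe the called genes.

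Epiblast state and gastrulation were the last group, because the primitive streak forms in this tissue at this age. Of 27 tested epiblast and pluripotency genes, 2 were higher in Dnmt1 (1.33% of all genes tested were) and 1 in G9a-Glp (1.91%). Tdgf1, a coreceptor of Nodal, had 1548, 1549 and 486 CPM in Dnmt1 and 37.2 to 393 CPM in G9a-Glp (log2 difference 2.74 ± 0.54 SE, adjusted p = 0.0116), and the wild type had 159 to 1125 CPM. Lefty2, an inhibitor of Nodal, had 216, 140 and 31.5 CPM against 5.94 to 32.9 CPM, so embryo 3 lay among the G9a-Glp values (log2 difference 2.62 ± 0.51 SE, adjusted p = 0.0101). Wild-type Lefty2 was 0.330 to 324 CPM. Utf1, a chromatin protein of pluripotent cells, had 135, 166 and 533 CPM in Dnmt1, 598 to 865 CPM in G9a-Glp and 42.7 to 158 CPM in wild type (log2 difference -1.40 ± 0.35 SE, adjusted p = 0.0406). The 3 calls were lost without Dnmt1 embryo 1, those of Tdgf1 and Utf1 also without Dnmt1 embryo 2, and that of Utf1 also without G9a-Glp embryo 1, 2, 4, 5 or 7. Dnmt3b, a de novo methyltransferase, had 2767 to 3651 CPM in Dnmt1 and 2135 to 4651 CPM in G9a-Glp (adjusted p = 0.906).

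Dnmt1 embryo 3 stood apart from embryos 1 and 2 in streak genes. The 28 listed streak and mesendoderm genes in the table summed to 1371, 1073 and 244 CPM in Dnmt1 embryos 1, 2 and 3, 91.9 to 515 CPM in G9a-Glp and 61.4 to 1955 CPM in wild type. The highest wild-type sum was that of embryo 8, and the next was 1375 CPM. T, the mesoderm factor Brachyury, had 236, 184 and 18.1 CPM in Dnmt1 and 1.71 to 67.8 CPM in G9a-Glp (adjusted p = 0.151). Mixl1 had 168, 115 and 16.8 CPM against 0 to 76.2 CPM (adjusted p = 0.354). Lefty2 was the single call among the 14 streak genes tested, whose median log2 difference was 1.73 against 0.01 over all genes. With no filter on low counts and every library kept, 12 of 27 passed, all higher in Dnmt1. Over all 20800 genes tested in that setting 745 passed, 323 of them higher in Dnmt1. With wild type fitted as another group 0 of 20 streak genes passed, and under the replicate block 0 of 14. Without Dnmt1 embryo 3, 12 of 18 passed, all higher in Dnmt1. Over all 10485 genes tested in that setting 1216 passed, 452 of them higher in Dnmt1. The wild type spanned both levels, with 5.61 to 313 CPM of T, so the spread among embryos was as wide as that between the knockouts, and differences in developmental stage were not tested. Markers of the neighbouring extraembryonic ectoderm, 9 genes, summed to 90.6 to 246 CPM in Dnmt1, 27.4 to 129 CPM in G9a-Glp and 27.1 to 231 CPM in wild type. Most of that sum was Eomes, also a streak gene, with 74.5 to 238 CPM in Dnmt1 and 25.7 to 125 CPM in G9a-Glp. Elf5 had 3.28 to 7.01 CPM in Dnmt1 against 0 to 1.75 CPM, and Bmp4 2.34 to 5.26 CPM against 0 to 1.63 CPM, without overlap. Both had too few reads to be tested, and 942 of the 9935 genes tested (9.48%) did not overlap either. Tfap2c, at 1.88 to 3.35 CPM against 1.22 to 3.50 CPM, overlapped, as did Eomes, Esrrb, Gata3 and Pglyrp1. Cdx2 and Wnt7b had no reads in Dnmt1, and the part of these markers in any result was not tested.

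**Figure D5:**
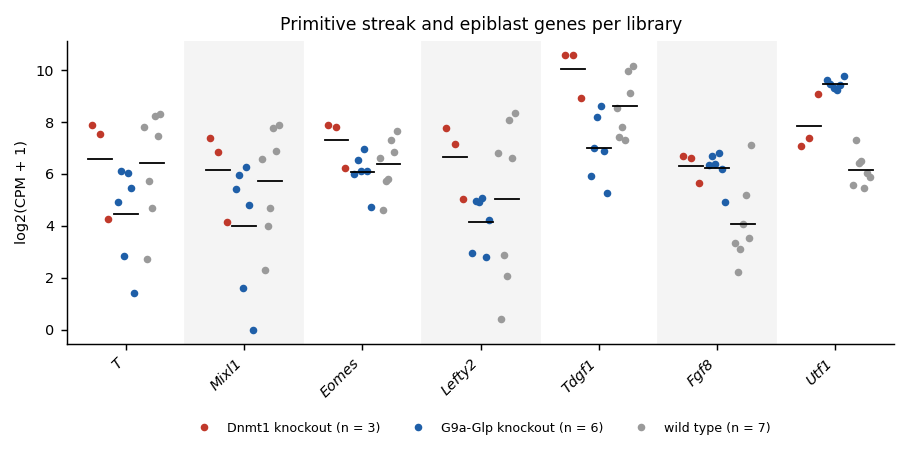
Level of streak and epiblast genes as log2(CPM + 1), 1 point per library in Dnmt1 (red), G9a-Glp (blue) and wild-type (grey) epiblast, with bars at the mean of the log2 values. For T, Mixl1 and Lefty2 the lowest Dnmt1 point is embryo 3, and wild-type points span most of the range.

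Genes of the 2 pathways themselves included the targeted Dnmt1 and Ehmt2. Among all genes tested, 1.33% were higher in Dnmt1 and 1.91% in G9a-Glp. Of 19 tested genes of DNA methylation and demethylation, 0 were higher in Dnmt1 and 2 in G9a-Glp: Dnmt1 itself and Mbd2, a methyl-CpG reader with 15.9, 11.4 and 12.1 CPM in Dnmt1 and 26.7 to 48.2 CPM in G9a-Glp (log2 difference -1.48 ± 0.28 SE, adjusted p = 0.00812). Of 24 tested genes of H3K9 methylation and imprint protection, Ehmt2 and Atf7ip were higher in Dnmt1. Atf7ip, the partner of the H3K9 methyltransferase Setdb1, had 100.3, 121 and 94.6 CPM against 39.9 to 73.3 CPM (log2 difference 1.07 ± 0.20 SE, adjusted p = 0.0076). The Mbd2 and Atf7ip calls were lost without Dnmt1 embryo 2. Trim28, the corepressor of zinc finger proteins at imprints, had 760 to 1608 CPM in Dnmt1 and 764 to 1243 CPM in G9a-Glp (adjusted p = 0.54).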

How the data were processed

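RNA of single epiblasts was made into cDNA with SMART-Seq v4 and libraries with Nextera XT, per the labels' protocols. STAR 2.5.0, HTSeq and the build mm10 are named in the submitters' processing notes. The authors deposited, per the file headers and notes, a count of reads over strain polymorphisms per gene, a ratio score equal to the CAST share minus 0.5, and a signed -log10 binomial p as the allelic score. The table held 30546 genes, 29557 of them autosomal, and 72 libraries, and 0 columns were unmapped. The method of counting over polymorphisms is not given in the sources used here, and strand use is unknown, so overlapping genes can share reads.

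Maternal and paternal reads were recovered as the whole number matching the deposited ratio and score within 0.001. This succeeded for 148574 of 148608 values (99.977%). A further 468 values with a score of at least 300, holding 5.25% of reads, used the rounded ratio. Groups came from the labels. Totals were compared with edgeR 4.0.16 (quasi-likelihood test, TMM, filterByExpr) over the 3 and 6 knockout libraries. Allele counts were compared with edgeR and a term per library, keeping genes that reached 10 reads in no fewer than 3 libraries on each side. Tests were two-sided, with Benjamini-Hochberg adjustment over all genes tested and a threshold of 0.05. The silent-allele share used listed genes with at least 70% of reads from the listed parent in both wild-type crosses and at least 20 reads in a library. Fold changes are log2, Dnmt1 minus G9a-Glp. Scripts were tested on simulated data.

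Named genes were the targeted genes, the 10 largest non-overlapping calls in each direction, up to 4 called and 2 uncalled members of each list, and imprinted genes by size of the allelic difference. Other genes were chosen after their values were seen, including streak, germline and Prader-Willi genes beyond those. The members and lists were chosen with earlier results of these data known. Replicate numbers are embryo numbers in the labels. No 2 knockout libraries of a group agreed within sampling noise. Alternatives were leave-one-out, DESeq2 1.42.0 or its size factors, no filter, limma 3.58.1 on log ratios, other read minimums, wild type fitted as another group, sex as a covariate, and a replicate block.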

Additional observations from a re-analysis of the deposited data

Results flagged for a closer look

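Among 94 groups of G9a-Glp values examined, 17 had 1 embryo whose gap to the nearest other exceeded Dixon's 95% critical value. Chance gives about 1 in 20 for normally distributed values. That rate does not hold for Tspan10, Cyp4a12b, Snhg14, Snrpn-Snurf and Rian, where the other 5 embryos tied at 0 or 100% and any few reads pass. In maternal share, embryo 4 had 31.0% for Peg3, where the next was 5.69%, and 34.5% for Zdbf2, where the next was 12.8%. Embryo 7 had 45.0% for Fkbp6, where the next was 12.6%. Embryo 2 was the low one for Slc38a4, at 14.6% with the next at 31.3%. Embryo 1 stood apart at 8.70% for Kcnq1ot1, 2.74% for Snhg14 and 1.43% for Snrpn-Snurf, and embryo 5 at 99.1% for Rian.

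In level, G9a-Glp embryo 2 had 17.7 CPM of Tuba3a with the next at 7.90 CPM, 73.3 CPM of Atf7ip with the next at 48.9 CPM, 298 CPM of Cbx5 with the next at 239 CPM, and 210 CPM of Slc38a4, the lowest, with the next at 244 CPM. Embryo 3 had 19.6 CPM of Egr1 with the next at 6.84 CPM, and 1.22 CPM of Dazl with the next at 0.376 CPM. Embryo 4 had 1.94 CPM of Tas1r1. Embryo 7 had 0.855 CPM of Tspan10 and embryo 5 had 0.699 CPM of Cyp4a12b, each 2 reads where the other embryos had none. Their causes were not tested.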

How the results depend on the processing

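The number of genes differing in level depended on the libraries and the tool. Against 322, it was 113 to 1216 when 1 Dnmt1 embryo was left out, 173 to 467 when 1 G9a-Glp embryo was, 169 without G9a-Glp embryos 2 and 7, 585 with DESeq2, 745 with no filter on low counts (20800 genes tested), 187 with wild type fitted as another group, 311 with DESeq2 size factors and 343 with sex as a covariate. The split between alleles was steadier: against 13, it was 9 to 15 with 1 embryo left out and 22 with limma on log ratios. With a replicate block the counts were 17 for level (8 higher in Dnmt1, 9 in G9a-Glp) and 8 for alleles, although same-numbered embryos did not deviate together (correlations -0.246, 0.0081 and -0.494 for embryos 1, 2 and 3) and none was closest to its own number. Under the replicate block the germline counts were 3 and 0, and 0 of 13 paternally expressed imprinted genes passed, against 7 higher in Dnmt1 and 1 in G9a-Glp with DESeq2 and 9 higher in Dnmt1 of 27 with no filter. The cause of these moves was not tested.

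The silent-allele share was 48.4% in Dnmt1 when at least 50 reads were required, and 6.58% in G9a-Glp as a mean over genes. Of 44 named genes called for level, 6 kept their call in every setting run (Dnmt1, Pla2g1b, Mroh2b, Tuba3a, Sycp1 and Grb10), as did 6 of 13 named for alleles (Kcnq1ot1, Mcts2, Snhg14, Impact, Meg3 and Snrpn-Snurf). The replicate block alone ended 38 of these calls for level and 6 of those for alleles, although same-numbered embryos did not deviate together. No called gene reversed. Among uncalled genes, leaving out 1 embryo gave log2 differences on both sides of 0 for Rps27l (-0.20 to 0.07), Dnmt3b (-0.15 to 0.08), Fgf8 (-0.18 to 0.25), Krt18 (-0.25 to 0.28), Trim28 (-0.03 to 0.47), Bst2 (-0.43 to 0.95), Ldha (-0.05 to 0.35) and the allele ratio of Slc38a4 (-0.28 to 0.10). Fgf8 was 0.01 with DESeq2, 0.01 with its size factors and 0.06 with sex as a covariate. Emb was -0.02 and Ifitm3 -0.04 without G9a-Glp embryos 2 and 7. Under the replicate block Bst2 was -0.04 and the Slc38a4 allele ratio 0.27. The scalings gave a median over all genes of 0.01 to 0.02. With 3 Dnmt1 embryos and few reads per gene, low genes and allele shares under about 20 reads are the least certain.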

Other observations

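A long noncoding RNA close to Slc38a4 differed in level between the knockouts. Gm32885 (chr15:97157117-97167278, mm10) lies 101160 bases from Slc38a4 and was chosen after its values were seen, since clone-named genes were left out of the naming rule. It had 75.0, 128 and 164 CPM in the Dnmt1 embryos, 4042, 1768, 2751, 1723, 2727 and 2117 CPM in G9a-Glp embryos 1, 2, 3, 4, 5 and 7, and 28.7 to 85.5 CPM in wild type. The groups did not overlap (log2 difference -4.44 ± 0.37 SE, adjusted p = 2.02e-05, edgeR). Its maternal share was 7.50, 6.85 and 5.33% in Dnmt1, 17.01 to 35.6% in G9a-Glp and 3.33 to 10.4% in wild type. The knockouts did not overlap in this share either, but the allelic test missed its threshold (log2 ratio change -2.41, adjusted p = 0.0764, edgeR).

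Metallothioneins, which bind zinc and copper, were higher in Dnmt1 and were also chosen after their values were seen. Mt1 had 3066, 3390 and 4813 CPM in Dnmt1, 463 to 2175 CPM in G9a-Glp and 582 to 2221 CPM in wild type (log2 difference 1.47 ± 0.33 SE, adjusted p = 0.0263, edgeR). Mt2 had 559, 497 and 452 CPM against 102.6 to 352 CPM (adjusted p = 0.0432, edgeR). Hsp90ab1, a chaperone, had 2975, 2571 and 2644 CPM in Dnmt1, 1287 to 2002 CPM in G9a-Glp and 513 to 1348 CPM in wild type (adjusted p = 0.0162, edgeR), so both knockouts were near or above the top of the wild-type range. The calls of Mt1, Mt2 and Hsp90ab1 were lost without Dnmt1 embryo 1 or 2, that of Mt1 also without G9a-Glp embryo 2, 5 or 7, and that of Mt2 also without G9a-Glp embryo 2, 4, 5 or 7. Pmm1, a phosphomannomutase, had 434, 663 and 1270.2 CPM against 162 to 263 CPM (adjusted p = 0.00113, edgeR).

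Ifitm1 and Ifitm2, neighbouring interferon-induced membrane proteins, went in opposite directions. Ifitm1 had 135, 194 and 67.1 CPM in Dnmt1 and 25.2 to 50.0 CPM in G9a-Glp (adjusted p = 0.00321, edgeR), and Ifitm2 had 329, 410 and 488 CPM against 517 to 734 CPM (adjusted p = 0.036, edgeR). Of 21 tested innate immune genes these were the 2 calls, and that of Ifitm2 was lost without Dnmt1 embryo 1 or 2 or G9a-Glp embryo 1, 4, 5 or 7. Of 29 tested glycolysis and hypoxia genes, Ndrg1 was higher in Dnmt1 (45.0, 53.4 and 6.71 CPM against 1.71 to 6.77 CPM) and Ldhb lower (459, 539 and 450 CPM against 707 to 830 CPM), a call lost without Dnmt1 embryo 1. Apoe, an apolipoprotein, was the single call of 19 tested visceral endoderm genes (425, 399 and 594 CPM against 140 to 295 CPM). None of 25 tested p53 targets, 24 Polycomb subunits or 8 trophoblast genes passed with edgeR; over all genes, 1846 had an unadjusted p under 0.05. Without Dnmt1 embryo 3, 1 p53 target, 4 Polycomb subunits and 2 trophoblast genes passed, and without G9a-Glp embryo 3, 3 Polycomb subunits did. DESeq2 called 3 Polycomb subunits, 1 trophoblast gene and 0 p53 targets. Calls over all genes also rose in these settings, from 322 of 9935. They were 1216 of 10485 without Dnmt1 embryo 3, 467 of 9749 without G9a-Glp embryo 3 and 585 of 9935 with DESeq2. Of 58 clustered protocadherins, 0 had enough reads to be tested.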
